A study of Mus musculus with 60 samples.

Results

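Sox2, Sox11, Pax6, Neurog2, Neurod1, Fabp7 and Rest were followed in wild-type and MSTN-null mice from the embryo to young adult muscle. Every probe set whose platform gene symbol was one of these 7 genes was taken, which gave 20 of the 45037 probe sets for mouse transcripts on the paired MOE430A and MOE430B arrays, called chip A and chip B here. These arrays name 18193 genes. Myostatin is a secreted TGFβ family member that limits skeletal muscle mass, and MSTN-null mice lack it in every tissue. Both genotypes were on the C57BL/6J background and the labels name no treatment. The tissues were the whole embryo (13.5 days post coitum, d.p.c.), embryo hindquarters at 17.5 d.p.c. and, at 35 days of age (d35), the pectoralis muscle. Each genotype and time point had 5 pools of RNA from 3 animals each, 15 animals in all, so that 30 pools were read on 60 arrays. Mstn itself was named by no probe set used here and was not analysed here.

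Sox2, an SRY-box transcription factor, keeps neural stem cells in a dividing, undifferentiated state. Pax6 is a paired-box factor that patterns the forebrain and the eye, Neurog2 and Neurod1 are basic helix-loop-helix factors that commit progenitors to the neuronal fate, Sox11 acts in newly formed neurons, and Fabp7 is a fatty acid binding protein of radial glia. Rest is a zinc finger repressor that silences neuronal genes outside the nervous system and in progenitors, together with the cofactors Rcor1, Sin3a and histone deacetylases. In a sample of a whole embryo or of muscle, fewer cells of a type and less RNA per cell cannot be told apart.

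Upstream sequence was taken from RefSeq (GRCm38.p6), where 6 of the 7 genes had a window of 250 bases ending at the annotated start of the gene. Rest was not matched. The 4 windows below belong to genes that, at 13.5 d.p.c., were higher in wild-type at an unadjusted p under 0.05 in the limma test described further on, and they were chosen for display after those values were seen. Capitals mark the GC box GGGCGG or its reverse complement, the short element that SP and KLF factors can bind, and both strands were searched. The Sox11 window is chr12:27342719-27342968 on the minus strand, the Sox2 window chr3:34649745-34649994 on the plus strand, the Neurog2 window chr3:127632886-127633135 on the plus strand and the Neurod1 window chr2:79456637-79456886 on the minus strand.
Sox11: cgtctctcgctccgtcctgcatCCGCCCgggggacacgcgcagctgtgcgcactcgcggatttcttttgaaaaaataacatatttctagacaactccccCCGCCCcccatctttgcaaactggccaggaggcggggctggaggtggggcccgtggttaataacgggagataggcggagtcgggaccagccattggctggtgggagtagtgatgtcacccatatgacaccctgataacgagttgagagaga
Sox2: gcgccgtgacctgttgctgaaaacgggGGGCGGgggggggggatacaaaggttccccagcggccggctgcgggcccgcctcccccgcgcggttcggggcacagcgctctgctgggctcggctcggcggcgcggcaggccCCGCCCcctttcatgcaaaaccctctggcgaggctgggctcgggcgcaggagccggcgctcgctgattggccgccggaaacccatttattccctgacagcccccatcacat
Neurog2: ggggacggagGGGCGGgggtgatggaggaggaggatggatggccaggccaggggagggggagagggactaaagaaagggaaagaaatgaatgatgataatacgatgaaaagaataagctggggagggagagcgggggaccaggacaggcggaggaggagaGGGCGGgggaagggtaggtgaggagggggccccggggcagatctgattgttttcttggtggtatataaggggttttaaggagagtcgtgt
Neurod1: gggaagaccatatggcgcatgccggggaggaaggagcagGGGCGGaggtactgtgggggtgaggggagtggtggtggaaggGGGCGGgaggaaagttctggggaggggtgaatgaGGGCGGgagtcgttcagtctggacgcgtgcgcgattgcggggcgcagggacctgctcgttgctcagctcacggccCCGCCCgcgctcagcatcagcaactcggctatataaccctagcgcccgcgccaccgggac
GC boxes were found in 4 of the 6 genes, with 4 in the Neurod1 window and 2 in each of the Sox11, Sox2 and Neurog2 windows. Neither Pax6 window (chr2:105668646-105668895 and chr2:105682213-105682462, plus strand) nor the Fabp7 window (chr10:57784673-57784922, plus strand) held one. Of all 32851 windows, 32.7% held a GC box, a share per window and not per gene. The SMAD core CAGAC, letters that mediators of TGFβ signals can bind, stood once in the Neurod1 window and 2 times and once in the Pax6 windows, against 42.2% of all windows with at least 1. The SOX core ACAAAG stood once in the Sox2 window and once in the second Pax6 window, against 16.5% of all windows. GC content was 58.0% for Sox11, 72.0% for Sox2, 58.0% for Neurog2 and 67.6% for Neurod1. It was 60.8% and 47.6% for the Pax6 windows and 54.8% for Fabp7, with a median of 52.4% over all windows. These matches describe the letters of the windows and do not show that a factor bound there.

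Values were the deposited robust multi-array (RMA) intensities on the log2 scale, in which 1 unit is a doubling. All differences below are wild-type minus MSTN-null, tested with limma on all 45037 probe sets within a time point, and a probe set was called where its Storey q (the share of false calls expected among calls) was under 0.05. The chip B array of wild-type pool 1 stood apart at 17.5 d.p.c.: its mean correlation with the other 9 arrays was 0.9497, whereas the other arrays lay between 0.987 and 0.989. On chip A that pool was at 0.984, and MSTN-null pools 5 and 4 were lower, at 0.981 and 0.982. Results of that time point that turn on wild-type pool 1 are given with and without it. At d35 wild-type pool 2 was the lowest on both chips, at 0.9866 on chip A and 0.9897 on chip B, with the other arrays at 0.9924 or above. The tissues differed as labelled, since the mean level of 14 skeletal muscle genes was 8.77 to 9.07 in whole embryos, 11.5 to 12.1 in hindquarters and 11.75 to 12.02 in pectoralis. Array medians also differed between time points, so that those means are not on one scale.

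At 13.5 d.p.c. 2 of the 20 probe sets were called, 1 of Rest and 1 of Sox11, both higher in wild-type embryos. Of all probe sets 0.54% were called at this time point. Rest probe set 1425565_at read 9.63, 9.70, 9.76, 9.56 and 9.48 in wild-type pools 1 to 5 and 9.39, 9.29, 9.28, 9.16 and 9.27 in MSTN-null pools 1 to 5. Every wild-type pool lay above every MSTN-null pool. The means were 9.63 ± 0.113 and 9.28 ± 0.0803 (SD, n = 5 each), a difference of 0.35 (SE 0.0558, 95% interval 0.23 to 0.47), or 1.27-fold, with a limma q of 0.0169. Sox11 probe set 1436790_a_at read 10.03, 9.62, 9.98, 9.80 and 9.63 in the wild-type pools. The MSTN-null pools read 9.06, 9.48, 9.46, 9.35 and 9.26, again with no overlap. The difference was 0.49 (SE 0.0895, 95% interval 0.30 to 0.68), or 1.41-fold, with a limma q of 0.0225.

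**Figure D1:**
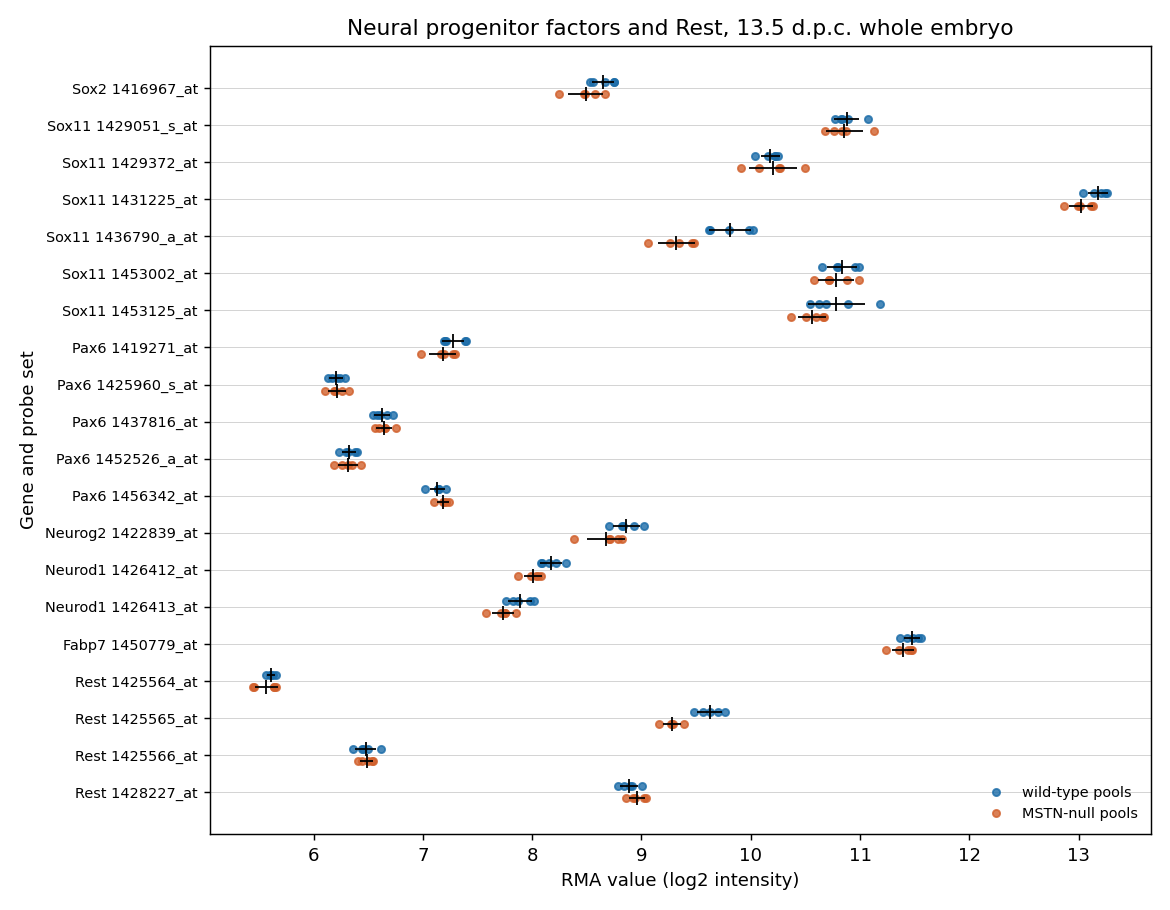
Values of all 20 probe sets at 13.5 d.p.c., on the x axis as log2 RMA intensity and on the y axis by gene and probe set. Each point is a pool (5 wild-type in blue, 5 MSTN-null in orange), the vertical tick is the mean and the bar its SD. Only Sox11 1436790_a_at, Rest 1425565_at and Neurod1 1426412_at show wild-type and MSTN-null pools without overlap.

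Both calls rested on a single probe set of their gene. The other 3 Rest probe sets differed by -0.07 to 0.04, with q between 0.466 and 0.727. Of these, 1425564_at (5.45 to 5.66) and 1425566_at (6.36 to 6.62) were dim, below the chip A median of 8.05 to 8.09. Their 95% intervals were -0.06 to 0.15 and -0.11 to 0.10, below the difference measured by 1425565_at. Whether probe sets this dim can show a difference of that size was not tested. The remaining Rest probe set, 1428227_at on chip B, read 8.89 ± 0.0825 in wild-type and 8.96 ± 0.0745 in MSTN-null embryos (SD, n = 5 each). Its 95% interval of -0.18 to 0.03 lay below the difference measured by 1425565_at. The other 5 Sox11 probe sets, all on chip B, differed by -0.02 to 0.22, with q between 0.236 and 0.711. They were the brighter ones, with median percentile ranks of 98.8 to 99.98 within their chip, against 79.4 for the called probe set within chip A. The nearest to a call was 1431225_at, at 13.24, 13.04, 13.26, 13.20 and 13.15 in wild-type pools and 12.86, 13.13, 13.01, 13.11 and 12.99 in MSTN-null pools. These overlapped, with a difference of 0.15 (SE 0.0563, q = 0.236 in limma). Probe set 1453125_at differed by 0.22 (SE 0.0991) and also overlapped, its highest value being the 11.18 of wild-type pool 1.

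To show the called probe set beside the rest of its gene, the mean of the other probe sets was subtracted from it in each pool. The probe set was picked because it was called, so these values are given as a description with no test. For Sox11 the called probe set is on chip A and the others on chip B, so that a difference between probe sets and one between arrays cannot be told apart there. At 13.5 d.p.c. the subtraction gave -1.36 ± 0.167 in wild-type and -1.76 ± 0.0674 in MSTN-null embryos for Sox11 (SD, n = 5 each). For Rest it gave 2.63 ± 0.141 and 2.27 ± 0.0751. In hindquarters at 17.5 d.p.c. the genotypes differed by 0.02 for Sox11 and by -0.02 for Rest, or by -0.01 and 0.05 without wild-type pool 1, and at d35 they differed by 0.07 and 0.09.

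**Figure D2:**
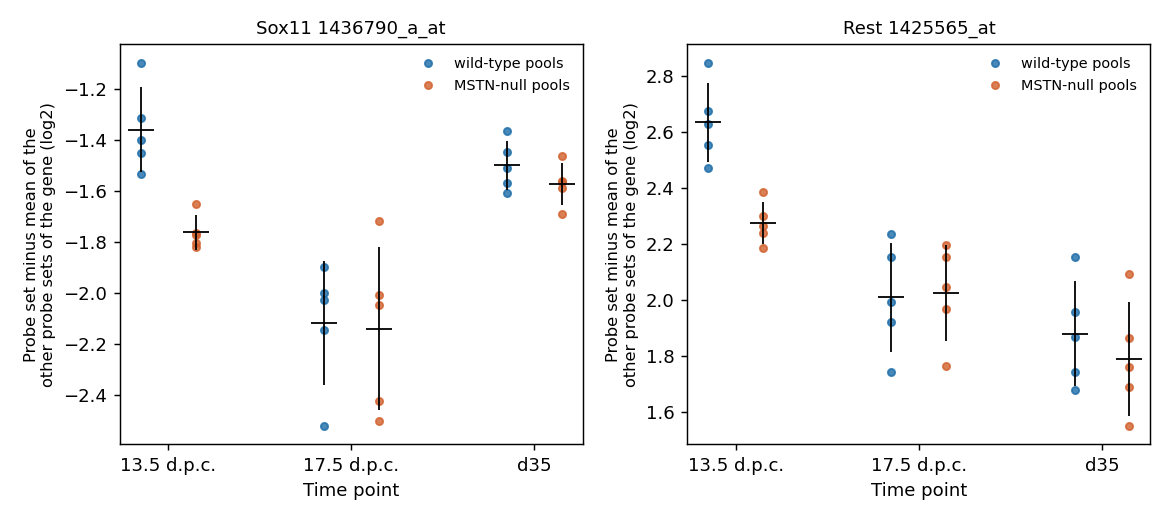
The called probe set of Sox11 (left) and of Rest (right) minus the mean of the other probe sets of its gene, on the y axis in log2 units, by time point on the x axis. Points are pools, short lines are means and bars are SDs (n = 5 per genotype). Wild-type and MSTN-null pools are separate at 13.5 d.p.c. and overlap at 17.5 d.p.c. and d35.

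Neurod1, the differentiation factor, was the third gene with separated groups. Probe set 1426412_at read 8.31, 8.08, 8.15, 8.22 and 8.09 in wild-type pools and 8.03, 7.99, 8.08, 8.05 and 7.87 in MSTN-null pools, a difference of 0.17 (SE 0.0530), or 1.12-fold, which was not called (limma q = 0.173). The lowest wild-type and the highest MSTN-null pool both read 8.08 after rounding. Groups did not overlap for 2.4% of all probe sets. The other Neurod1 probe set, 1426413_at, differed by 0.16 (SE 0.0584, limma q = 0.236) and overlapped. Neurog2, which acts before Neurod1 in neuronal commitment, read 9.02, 8.70, 8.83, 8.93 and 8.82 in wild-type pools and 8.38, 8.78, 8.70, 8.82 and 8.71 in MSTN-null pools. The difference was 0.18 (SE 0.0763, limma q = 0.287), and MSTN-null pool 1 was the lowest of the 10.

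Sox2 showed a difference of similar size. Its only probe set read 8.75, 8.53, 8.67, 8.75 and 8.56 in wild-type pools and 8.24, 8.58, 8.67, 8.48 and 8.48 in MSTN-null pools, a difference of 0.16 (SE 0.0699, 95% interval 0.01 to 0.31) that was not called (limma q = 0.297). The groups overlapped. Fabp7, the radial glia gene, differed by 0.08 (SE 0.0523, 95% interval -0.03 to 0.19, limma q = 0.451). The 5 probe sets of Pax6 lay between -0.05 and 0.10, the highest being 1419271_at (0.10, SE 0.0618, limma q = 0.449), and wild-type and MSTN-null pools overlapped in each.

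Across the 20 probe sets 14 differences were positive and 6 negative, with a median of 0.07, whereas 50.3% of all probe sets were positive with a median of 0.00. The 14 became 18 after a further quantile normalization and 13 with the actin covariate described below. As single pools were left out it ranged from 12 to 18 and the median from 0.04, without MSTN-null pool 1, to 0.09. An unadjusted p under 0.05 was reached by 8 probe sets of 5 genes, all higher in wild-type, beside 6.55% of all probe sets in that direction. Probe sets of one gene share their transcript and are not independent of each other. With the probe set of highest log2 value at this time point, each of the 7 genes was higher in wild-type, but only Rest was called. This count depends on the choice of probe set. Pax6 1456342_at, taken as the brightest in the comparison of ranks further on, differed by -0.05. Rest 1428227_at ranked higher within its chip than the called 1425565_at (median percentile 91.3 against 77.9) and differed by -0.07. The share of all genes higher in wild-type at such a probe set is not given here.

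The actin controls, whose 3′ to 5′ difference can reflect RNA integrity, moved with genotype at this time point. The actin control probe sets toward the 3′ end exceeded those toward the 5′ end by 0.0677 to 0.214 (log2) in wild-type and by 0.201 to 0.346 in MSTN-null embryos on chip A (exact permutation p = 0.0159). On chip B the ranges were 0.160 to 0.234 and 0.290 to 0.318 and did not overlap (exact permutation p = 0.00794). The Gapdh controls did not reach the threshold on either chip (exact permutation p = 0.262 and 0.143). At 17.5 d.p.c. the 3′ to 5′ difference of the Gapdh controls on chip B was higher in wild-type by 0.05 without overlap (exact permutation p = 0.00794), and at d35 the actin difference was 0.15 higher in wild-type on chip A and 0.14 higher on chip B (exact permutation p = 0.0873 on each chip), with wild-type pool 2 the highest. With the actin difference of each pool as a covariate at 13.5 d.p.c., the Rest difference was 0.13 (limma q = 0.999) and the Sox11 difference 0.38 (limma q = 0.999). Neither was called. This covariate, the mean of both chips, was 0.132 to 0.224 in wild-type and 0.247 to 0.332 in MSTN-null embryos, without overlap. Its part and that of genotype can hardly be told apart in such a fit. Fitting all 30 pools together also ended both calls, with limma q = 0.596 for Rest and q = 0.471 for Sox11. That fit shares a single estimate of the spread among the tissues, and the spread was larger at 17.5 d.p.c. Leaving out 1 pool at a time kept the Rest difference between 0.31 and 0.38 and ended its call without wild-type pool 1 or MSTN-null pool 3, 4 or 5 (q between 0.0544 and 0.0668). The Sox11 difference stayed between 0.42 and 0.54, and its call was lost without wild-type pool 1 or 3 or MSTN-null pool 1, 3, 4 or 5 (q between 0.0549 and 0.0839).

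Other genes of the same families at 13.5 d.p.c. were read from lists of SOX relatives, progenitor genes, proneural genes, Rest cofactors and Rest targets, with each gene at its brightest probe set unless a dimmer one was called. Of all 18193 genes 1.09% had at least 1 called probe set at this time point. Of 9 SOX relatives 8 were higher in wild-type, with a median of 0.08, and 1 had a called probe set. This was Sox4, which with Sox11 and Sox12 forms the SoxC group, called at 1 of its 8 probe sets (1419156_at, 10.1 ± 0.0878 against 9.85 ± 0.0632, SD, n = 5, 1.17-fold, limma q = 0.0404). The largest differences among the brightest probe sets were 0.12 for Sox1 (limma q = 0.507) and -0.02 for Sox6 (limma q = 0.695). None of 17 progenitor and radial glia genes and none of 17 proneural genes was called. Their medians were 0.06 and 0.02.

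Of 20 Rest cofactors 14 were higher in wild-type, with a median of 0.03, and 2 had a called probe set. Zmynd8, a chromatin reader, was higher at 1 of 5 probe sets (1429415_at, 9.58 ± 0.0585 against 9.30 ± 0.0983, SD, n = 5, limma q = 0.0215). Smarca4, the ATPase of the BAF remodelling complex, was higher at 1 of 2 probe sets (1426805_at, limma q = 0.0471), and its brightest probe set differed by 0.03 (limma q = 0.644). Rcor1, the corepressor that binds Rest directly, had the largest difference of the brightest probe sets, 0.22, and was not called (limma q = 0.110). The lowest was -0.09 for Kdm5c, a histone demethylase (limma q = 0.448).

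Of 24 Rest target genes, neuronal genes that the repressor can silence, 8 had positive and 16 negative differences (median -0.02), and none was called. Of 20 differentiated neuron genes 15 were higher, with a median of 0.05, and Elavl4, an RNA-binding protein of neurons, was called (1428741_at, 9.59 ± 0.116 against 9.29 ± 0.104, SD, n = 5, 1.23-fold, limma q = 0.0364). Markers of other tissues in the same pools were mostly lower in wild-type: 0 of 7 liver genes (median -0.20), 1 of 7 cartilage genes (median -0.09), 1 of 12 lens, pancreas and pituitary genes (median -0.05) and 0 of 8 macrophage genes (median -0.05) were higher, with no call. The counts were 4 of 11 for glial and Schwann cell genes, 3 of 7 for erythroid genes and 5 of 8 for epithelial genes, also with no call. Of 14 skeletal muscle genes 5 were higher, and Myh1, a fast myosin heavy chain, was lower in wild-type pools at 1 of 3 probe sets (0.835-fold, limma q = 0.0476). With the actin covariate none of the called probe sets of Sox4, Zmynd8, Smarca4, Elavl4 and Myh1 was called (limma q = 0.999 each), and the Smarca4 difference turned to -0.19. That setting, whose covariate itself separated the genotypes, left 1 call among all probe sets, and the single fit of 30 pools left 0. The mean level of the 7 liver genes ranged from 10.96 to 11.66 in wild-type and from 11.09 to 11.61 in MSTN-null pools. The mean level of the 20 differentiated neuron genes ranged from 9.73 to 9.79 and from 9.65 to 9.75. Their part in the Sox11 and Rest differences was not tested.

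At 17.5 d.p.c. no probe set of the 7 genes was called, and 0% of all probe sets were called by limma. None of the 20 reached an unadjusted p under 0.05, which 2.43% of all probe sets did, and no groups were separate, as for 0.535% of all. Rest 1425565_at read 8.49, 8.96, 9.07, 8.88 and 9.15 in wild-type and 8.65, 8.99, 9.13, 9.13 and 9.11 in MSTN-null hindquarters, a difference of -0.09 (95% interval -0.38 to 0.20). Sox11 1436790_a_at ranged from 5.86 to 6.73 in wild-type and from 6.03 to 6.84 in MSTN-null pools, a difference of -0.05 (95% interval -0.49 to 0.40). The SEs, 0.131 for Rest and 0.203 for Sox11, were over 2 times those at 13.5 d.p.c. Without wild-type pool 1 the differences were 0.01 for Rest (95% interval -0.21 to 0.24) and 0.08 for Sox11 (95% interval -0.33 to 0.50). Both probe sets are on chip A, where that pool was not the lowest in correlation. The smallest p belonged to Neurod1 1426412_at, at 0.12 (95% interval -0.01 to 0.26), which did not reach an unadjusted p under 0.05. Without wild-type pool 1 it was 0.14 (95% interval 0.01 to 0.28), the only probe set of the 20 to reach it in that fit, and was not called.

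Wild-type pool 1 was the lowest of its group at all 5 Sox11 probe sets of chip B. Probe set 1453125_at read 6.504 in that pool and 8.28 to 8.50 in the other wild-type pools, and the MSTN-null pools read 7.45 to 8.42. With all pools 7 of the 20 differences were positive and 13 negative, and 50.5% of all probe sets were positive. Without that pool 14 were positive, the difference of 1453125_at went from -0.12 to 0.25, and that of Rest 1425565_at from -0.09 to 0.01, with no call in either fit. Leaving out MSTN-null pool 4 also turned the majority, to 11 positive and 9 negative. Fabp7 ranged from 8.82 to 9.23 in wild-type and from 8.10 to 9.27 in MSTN-null pools. MSTN-null pool 5, the lowest for Fabp7, also had the lowest mean level of 7 liver genes, at 8.67. The other MSTN-null pools ranged from 11.8 to 12.8 and the wild-type pools from 11.6 to 13.5. The part of tissue makeup in these values was not tested.

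In pectoralis muscle at d35 no probe set of the 7 genes was called either, beside 4.58% of all probe sets. Of the 20 differences 19 were negative (median -0.06), wild-type being the lower, whereas 44% of all probe sets were positive with a median of -0.01. This count ranged from 17 to 20 as single pools were left out, and was 19 without wild-type pool 2. The differences were small and 95% intervals ran from -0.32 to 0.24 at most. An unadjusted p under 0.05 was reached by 2 of the 20, beside 17.9% of all probe sets. One was Pax6 1419271_at, which read 4.49, 4.41, 4.36, 4.44 and 4.57 in wild-type and 4.57, 4.60, 4.62, 4.62 and 4.56 in MSTN-null muscle, a difference of -0.14 (SE 0.0488, limma q = 0.0961). The other was Sox11 1453125_at, which differed by -0.15 (SE 0.0679, limma q = 0.162). Groups overlapped at each of the 20 probe sets, and 5.25% of all probe sets had none. Rest 1425565_at differed by 0.03 (95% interval -0.18 to 0.24) and Sox11 1436790_a_at by -0.02 (95% interval -0.12 to 0.09).

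**Figure D3:**
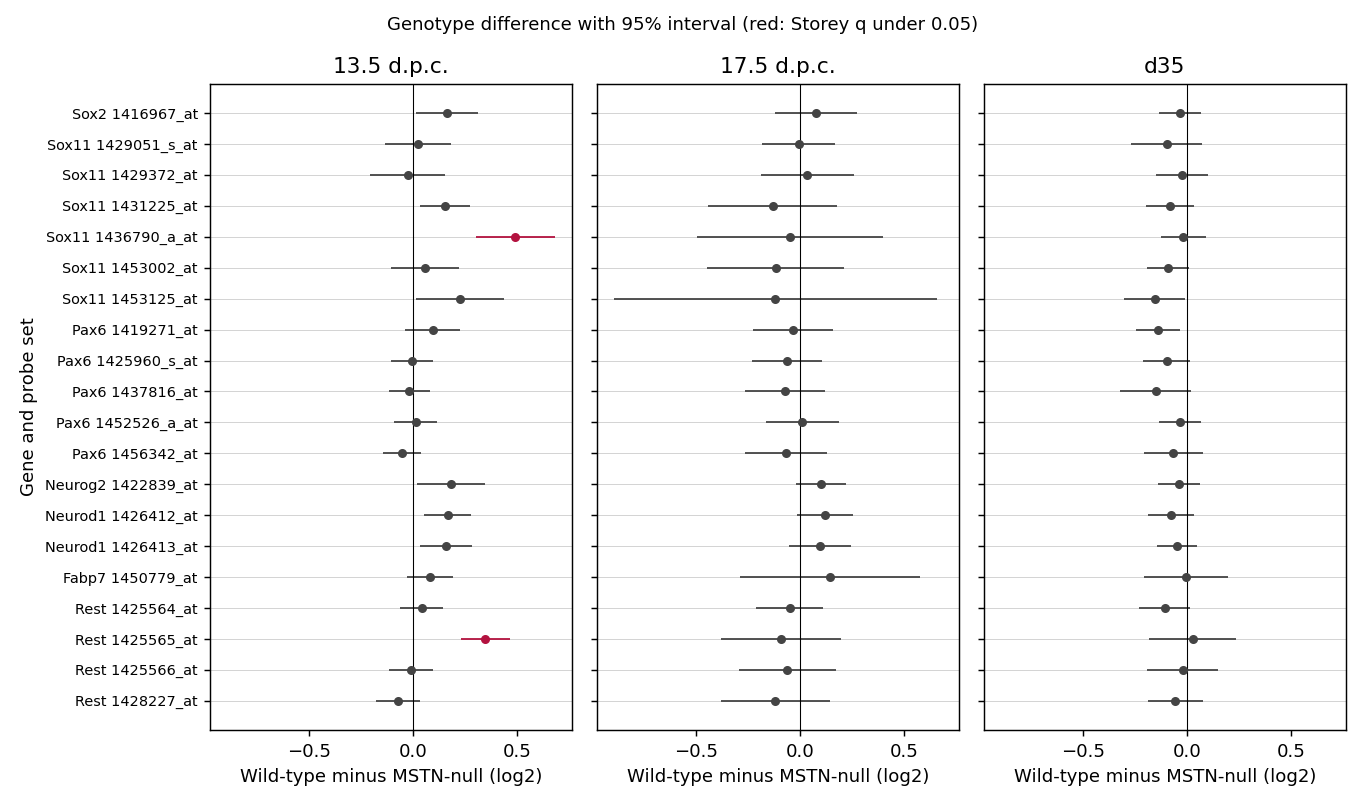
Wild-type minus MSTN-null difference of each probe set (x axis, log2), 1 panel per time point, with its 95% interval from limma (n = 5 pools per genotype). Red marks the 2 called probe sets, Sox11 1436790_a_at and Rest 1425565_at, both at 13.5 d.p.c., and 19 of the 20 points lie below 0 at d35.

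Of all genes 8.15% had at least 1 called probe set at d35. Among the related lists 2 of 17 progenitor genes were called, both higher in wild-type muscle. They were Hes1 (1.21-fold, limma q = 0.0296) and Notch1 (1.18-fold, limma q = 0.0410), which act in one signalling pathway that also controls muscle stem cells. Sox6, which represses slow fibre genes in muscle, was below MSTN-null levels in wild-type muscle at 2 of 4 probe sets (0.709-fold, limma q = 0.0134, and 0.798-fold, limma q = 0.0381). Ebf1 was higher at 2 of 5 probe sets (1.15-fold and 1.27-fold, limma q = 0.0387 and 0.0485). Of the Rest cofactors 17 of 20 were higher in wild-type, with Zmynd8 1426614_at called (1.32-fold, limma q = 0.0161). Of the Rest targets 8 of 24 were higher. Among them Stmn2, a microtubule regulator of growing axons, was called at the dimmer of its 2 probe sets (1.28-fold, limma q = 0.0151). S100b, a calcium-binding protein of glia, was higher at 1 of 2 probe sets (1.17-fold, limma q = 0.0345). In the skeletal muscle list 2 of 14 genes were higher at their brightest probe set (median -0.10), and 5 genes had a called probe set. Myh4, the fastest myosin heavy chain, was lower in wild-type at the dimmer of its 2 probe sets (0.668-fold, limma q = 0.00126). So was Ckm, the muscle creatine kinase, also at the dimmer of 2 (0.781-fold, limma q = 0.0222). Myh8, a perinatal myosin heavy chain with 1 probe set, was lower as well (0.736-fold, limma q = 0.0168). Ttn, the giant sarcomere spring, was higher at 1 of 6 probe sets (1.19-fold, limma q = 0.0129) and lower at another (0.792-fold, limma q = 0.0171). Myh1, named outside the rule as the fifth gene by q, was higher at 1 of 3 (1.15-fold, limma q = 0.0272). All 8 macrophage genes were higher in wild-type (median 0.16) and none was called. Their part in the other lists was not tested. With the actin covariate, of the probe sets named in this paragraph, only those of Myh4 and the higher one of Ttn were called. No gene of these lists was called at 17.5 d.p.c.

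Whether the genotype difference changed with time was tested in a single limma fit of the 30 pools. No probe set of the 7 genes passed in any of the 3 pairs of time points, beside 0% of all probe sets for 13.5 against 17.5 d.p.c., 1.17% for 13.5 d.p.c. against d35 and 0.715% for 17.5 d.p.c. against d35. At an unadjusted p under 0.05 there were 3, 6 and 1. Without wild-type pool 1 of 17.5 d.p.c. none passed either, and 2, 8 and 2 had an unadjusted p under 0.05. The share of all probe sets at that unadjusted threshold was not counted, so nothing is read from these counts. The Rest 1425565_at difference was larger at 13.5 than at 17.5 d.p.c. by 0.44 (SE 0.151, limma q = 0.562), and the Sox11 1436790_a_at difference by 0.54 (limma q = 0.612). Without that pool these were 0.33 (limma q = 0.482) and 0.41 (limma q = 0.534). Against d35 the gaps were 0.32 (limma q = 0.331) and 0.51 (limma q = 0.229), and the lowest q was that of Neurod1 1426412_at (0.25, limma q = 0.114). This fit shares a single estimate of the spread among the tissues, which limits what it could show. For Sox11 1436790_a_at its SE against d35 was 0.201, beside 0.0895 within 13.5 d.p.c. and 0.0505 within d35. The 95% intervals within those time points, 0.30 to 0.68 and -0.12 to 0.09, did not overlap. That probe set was picked because it was called at 13.5 d.p.c., so this is no test of a change. For Rest 1425565_at, picked in the same way, the intervals were 0.23 to 0.47 and -0.18 to 0.24 and overlapped. In this fit the Rest and Sox11 differences at 13.5 d.p.c. were not shown to differ from those at later times.

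For the levels across time, each probe set was ranked within its own chip and pool as a percentile, since the arrays of the time points were not on one scale. Tissue and age changed together and cannot be told apart, and ranks of different probe sets also reflect their probes. The Sox2 rank was 60.9 at the median of the 10 pools at 13.5 d.p.c. (53.6 to 64.5), 6.64 at 17.5 d.p.c. (3.91 to 9.86) and 0.473 at d35 (0.146 to 0.782), with no overlap between time points. Fabp7 was at 96.5 (95.7 to 96.9), 72.3 (56.3 to 77.9) and 10.6 (9.56 to 13.8). Sox11 1436790_a_at was at 79.4 (70.9 to 86.2), 22.3 (13.2 to 29.7) and 2.68 (1.92 to 3.72), also with no overlap. The brightest Sox11 probe set, 1431225_at, was at 97.2 in hindquarters (95.7 to 98.3) and at 66.5 in muscle (65.2 to 71.9).

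Neurog2 stood at 65.7 (56.7 to 69.9) in whole embryos, and its ranks in hindquarters (12.8 to 17.2) and muscle (16.1 to 18.3) overlapped. Neurod1 1426412_at was at 50.2 (46.1 to 55.3), 7.24 (5.11 to 9.12) and 9.91 (8.25 to 10.97), again with overlap between the last time points. Pax6 had no common order of rank: 1419271_at was highest in whole embryos at 32.7 (27.3 to 36.6), whereas 1456342_at was highest in muscle at 55.2 (50.4 to 59.8). The log2 values of 1456342_at did not rise in muscle, at 7.02 to 7.24, 7.11 to 7.61 and 6.91 to 7.34. Its rank rose as the chip A medians fell, from 8.05 to 8.09 in whole embryos to 6.88 to 6.94 in muscle. The repressor Rest was read by probe sets of high and of low rank. Probe set 1425565_at was at 77.9 (73.0 to 83.0), 74.3 (63.1 to 78.0) and 57.5 (52.9 to 63.3), and both neighbouring pairs of time points overlapped. Without wild-type pool 1 the hindquarter range was 66.2 to 78.0, which did not overlap that of muscle. Probe set 1428227_at was at 91.3 (89.8 to 92.1), 88.3 (78.8 to 90.0) and 65.1 (60.1 to 68.7), the embryonic stages overlapping and muscle lying below both.

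**Figure D4:**
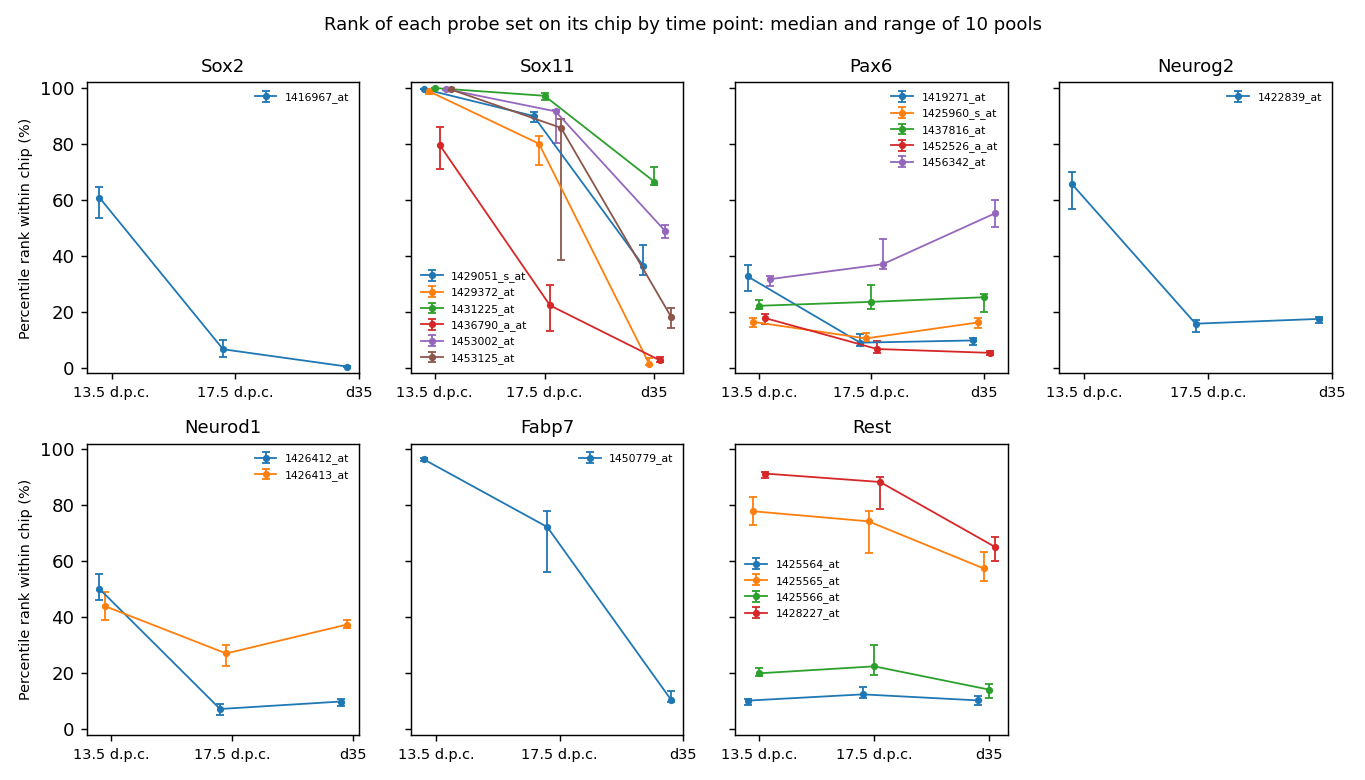
Percentile rank of each probe set within its chip (y axis) by time point (x axis), 1 panel per gene and 1 line per probe set. Points are medians and bars the range of the 10 pools of both genotypes. By median, Sox2, Fabp7, Neurog2 and all Sox11 and Neurod1 probe sets rank highest in whole embryos. So do the Rest probe sets 1425565_at and 1428227_at, which stand at 57.5 and 65.1 in muscle.

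The genes with the most similar ranks over the 6 genotype and time groups were found by the root mean square difference in percentile points, over 18192 genes. Each gene entered with its brightest probe set, and because ranks also reflect the probes, likeness is a description of these probe sets only. For Sox2 they were Cryga (4.64), a lens crystallin, and Epyc (5.05), a cartilage proteoglycan. Neurog2 was nearest to Psd2 (4.26) and Cryba1 (5.32), and for each of Sox2 and Neurog2 only 1 gene lay within 5 points. Fabp7 was nearest to the neuronal genes Uchl1 (3.83) and Nefl (4.15). Sox11 1431225_at was nearest to Car2 (1.63) and Ttr (1.69), and Rest 1425565_at to D030018L15Rik (2.00) and Nup155 (2.11). Pax6 1456342_at, which unlike 1419271_at ranked highest in muscle though its value did not rise, was nearest to Arhgap8 (1.60) and 1700061N14Rik (1.63). Neurod1 1426413_at, whose ranks were 43.9, 27.1 and 37.4, was nearest to Cdh22 (1.69) and Cep250 (1.73). Within 5 points there were 69 genes for Sox11, 194 for Pax6, 48 for Neurod1 and 190 for Rest.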

How the data were processed

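RNA of 30 pools was hybridised to MOE430A and MOE430B arrays, and the authors deposited log2 intensities after RMA normalization with the affy package in R, whose version is not given in the sources used here. Chip A and chip B arrays with the same genotype, time point and replicate number in their titles were taken as 1 pool, control probe sets were left out, and 0 columns of other samples were present. Within each time point all 45037 probe sets were fitted with limma 3.58.1 in R 4.3.3 (lmFit, eBayes, wild-type minus MSTN-null, two-sided), with Storey q from lambda 0.05 to 0.95 in steps of 0.05 and calls at q under 0.05. The exact permutation tests of the control probe sets were run in R, and figures used Python 3 with matplotlib. The number of arrays limits the precision. The genes and the lists were chosen with earlier results of these data known. The rule for naming took all probe sets of the 7 genes, called genes of each list (at most 4 by q), the SOX relatives and Rest cofactors with the largest difference in each direction, and the 2 genes closest in rank. The limma step was tested on simulated data. Alternatives were the p adjustment, separate chips, a dim filter at 5, further normalization, centring, moderation, a single fit, a replicate block, the brightest probe set, an actin covariate and leaving out each pool.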

Additional observations from a re-analysis of the deposited data

Results flagged for a closer look

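In 14 of 120 groups of 5 pools, 1 pool lay far from the other 4 by Dixon's ratio, where chance gives about 1 in 20. At 17.5 d.p.c. wild-type pool 1, whose chip B array stood apart, was low for 5 probe sets of that chip. It read 8.28 for Sox11 1429051_s_at, 7.61 for Sox11 1429372_at, 7.91 for Sox11 1453002_at, 6.504 for Sox11 1453125_at and 7.85 for Rest 1428227_at. MSTN-null pool 1 of the same age was low for Sox11 1453125_at at 7.45, and MSTN-null pool 5 was high for Rest 1428227_at at 8.55. MSTN-null pool 4 was high for Pax6 1437816_at at 6.91 and for Pax6 1452526_a_at at 5.71. At 13.5 d.p.c. MSTN-null pool 1 was low for Neurog2 at 8.38, with the other MSTN-null pools at 8.70 to 8.82.

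At d35 MSTN-null pool 3 was high for Neurod1 1426412_at at 4.70, and wild-type pool 4 was high for Fabp7 at 4.96. Wild-type pool 2 was low for Pax6 1456342_at at 6.91, and wild-type pool 5 was low for Sox11 1453125_at at 4.28. Neither called probe set of 13.5 d.p.c. had such a pool at that age. The cause of these values was not tested.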

How the results depend on the processing

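The count of 2 called probe sets among the 7 genes at 13.5 d.p.c. became 0 in the single fit of all 30 pools, 0 with the actin covariate and 1 with the brightest probe set per gene, and ranged from 0 to 2 as pools were left out. The 243 calls among all probe sets at 13.5 d.p.c. became 159 with Benjamini-Hochberg, 148 with median centring, 0 in the single fit, 14 with the brightest probe set per gene and 1 with the actin covariate, and 1 to 479 as pools were left out. At 17.5 d.p.c. the single fit called 14 probe sets in place of 0. At d35 the 2062 calls became 1324 with Benjamini-Hochberg, 1348 with the brightest probe set per gene and 632 with the actin covariate, and 777 to 2003 as pools were left out, with 777 without wild-type pool 3. Nothing in the labels pairs the replicate numbers, and same-numbered pools did not all correlate above 0.1 at any time point. Correlations ran from -0.100 to 0.0757 at 13.5 d.p.c. and from -0.172 to 0.139 at d35, with 1 of 5 numbers matching its own best at each. At 17.5 d.p.c. they ran from -0.199 to 0.485, where numbers 1, 3 and 5 (0.304, 0.388 and 0.485) matched their own best and 2 and 4 did not. With the replicate block 2, 0 and 0 of the 20 probe sets and 204, 0 and 1854 of all probe sets were called at the 3 time points. The Rest call was lost in 6 of 20 settings and the Sox11 call in 8 of 19, with every difference positive (0.13 to 0.38 and 0.38 to 0.54). The cause was not tested. In settings with fewer pools or 1 probe set per gene, fewer values entered the fit. Values near the low end of the arrays at d35 limit what could be seen there.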
